A study of Mus musculus with 6 samples.

Results

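The dental mesenchyme transcription factors described here are *Msx1*, *Msx2*, *Pax9*, *Barx1*, *Osr1*, *Osr2*, *Lhx6*, *Lhx8*, *Twist1* and *Prrx1*. They are 10 genes picked by symbol from the 27506 listed in the count table, and all 10 were found and had enough reads to be tested. RNA-seq was performed on dental pulp from the mandibular first molar of C57BL/6 mice at PN3.5 (postnatal day 3.5), with 3 libraries from Ror2fl/fl controls and 3 from Osr2-Cre;Ror2fl/fl mice, called mutants below. Both groups carry the floxed allele of *Ror2*, a receptor for non-canonical Wnt ligands, on both chromosomes, and the mutants also carry Cre recombinase under the control of *Osr2*. The study describes this Cre as active in dental mesenchyme and in bone around the tooth, with the dental epithelium spared. The labels do not say how many animals went into a library. Where libraries of a group do not come from separate animals, the p-values measure only the spread between these samples, which may be technical. Library identifiers run in a different number series in each group, so anything tied to those series cannot be told apart from the genotype.

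Teeth form through an exchange of signals between an epithelium and a mesenchyme derived from the cranial neural crest. The mesenchyme reads these signals through transcription factors. The homeodomain proteins MSX1 and MSX2 respond to BMP signals, and MSX1 acts with the paired domain protein PAX9 to maintain *Bmp4* in the tooth bud. BARX1 is a homeodomain factor of the molar field, while the zinc finger protein OSR2 limits the tooth field to a single row and OSR1 is its paralogue. LHX6 and LHX8 are LIM homeodomain factors of the oral mesenchyme induced by FGF8. TWIST1, a basic helix-loop-helix protein, and PRRX1, a paired-related homeodomain protein, are factors of undifferentiated craniofacial mesenchyme.

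Of the 10 factors, *Prrx1* fell and *Msx2* rose in mutant pulp, and the other 8 did not pass the test. *Prrx1* decreased by 38% (log2 fold change -0.69) and *Msx2* increased by 29.9% (log2 fold change 0.38). *Lhx8* and *Pax9* had the next most negative log2 fold changes, -0.64 and -0.50, without passing the threshold. Genes were called at an adjusted p under 0.05 in edgeR's quasi-likelihood test, with p-values of all 19330 tested genes adjusted together by the Benjamini-Hochberg method. By this test 20.2% of all genes were called (10.4% higher and 9.84% lower in mutants), so 2 of 10 is close to the background share.

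Sequences upstream of a RefSeq start of the 3 factors with the most negative log2 fold changes are shown so that their base composition can be read beside the values. RefSeq start sites on GRCm38.p6 gave 10 windows of 300 bases for 8 of the factors, all but *Osr1* and *Osr2*. The windows of *Pax9*, *Lhx8* and *Prrx1* had the lowest GC content of the 10, at 47%, 47% and 47.7%, against a median of 52.7% over all 32851 windows of the genome table. The next lowest was close, a window of *Lhx6* at 48.7%, although the log2 fold change of *Lhx6* was 0.05, so a low GC content was not particular to the factors with negative values. The other windows had 55.3% and 63.3% (*Lhx6*), 61% (*Msx2*), 66% (*Twist1*), 70% (*Msx1*) and 84.7% (*Barx1*). The part of each window that precedes the RefSeq start and lies outside every GENCODE exon of the gene follows, 5′ to 3′ on the gene's strand. For *Pax9* this part lies inside the GENCODE gene span, past its start and between exons, so it is upstream of the RefSeq start only. Capitals mark TAATTA, the core that many homeodomain proteins bind in vitro. The motif TAATTG, a variant of that core, the TATA box motif TATAAA and the CCAAT box were also searched on both strands and do not occur in these 3 stretches.
Prrx1 (chr1:163313711-163313900, minus strand): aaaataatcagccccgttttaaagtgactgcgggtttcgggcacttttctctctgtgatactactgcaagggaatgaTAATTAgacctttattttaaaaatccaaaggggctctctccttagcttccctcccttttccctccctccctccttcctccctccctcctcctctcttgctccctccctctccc
Lhx8 (chr3:154330660-154330810, minus strand): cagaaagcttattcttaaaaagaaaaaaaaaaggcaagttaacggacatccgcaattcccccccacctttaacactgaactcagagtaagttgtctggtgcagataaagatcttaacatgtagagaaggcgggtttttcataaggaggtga
Pax9 (chr12:56695221-56695470, plus strand): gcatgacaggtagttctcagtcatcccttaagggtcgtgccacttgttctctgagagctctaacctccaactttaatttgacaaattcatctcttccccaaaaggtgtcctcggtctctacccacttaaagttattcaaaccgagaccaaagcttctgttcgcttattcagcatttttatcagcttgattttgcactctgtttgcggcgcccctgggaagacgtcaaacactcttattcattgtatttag
TAATTA, which reads the same on both strands and overlaps no other motif searched here, occurred in the windows of *Prrx1* and *Msx2*, 2 of the 10, and in 5.29% of all windows. TAATTG occurred in 1 of the 10 windows and in 8% of all windows, TATAAA in 2 of the 10 and 13.6%, and CCAAT in 5 of the 10 and 37.4%. A match is a description of the letters in the window and not of binding.

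Values that touch every result concern what the libraries contain. The estimated counts summed to between 56134770 and 62628940 per library. The enamel matrix gene *Amelx*, made by ameloblasts of the dental epithelium, alone took 9.15% to 9.97% of the counts in control libraries and 12.6% to 15.1% in mutant libraries, so the material labelled dental pulp also held dental epithelium. The summed level of 10 epithelial markers was 171780 to 192097 CPM in controls and 185260 to 255558 CPM in mutants, and none of the 10 passed the edgeR test, while 4 had an unadjusted p under 0.05. Most of this sum came from the enamel matrix genes *Amelx*, *Ambn* and *Enam*. Control library 1 had the lowest sum of the controls, yet each of the other markers of the list was highest there (*Krt14* 1178 CPM, against 855 and 921 CPM). CPM stands for a gene's count scaled to a common library size, with TMM factors. Of 9 markers of pulp mesenchyme, 3 fell (*Postn*, *Fn1* and *Col3a1*), none rose and 6 did not pass, where 9.84% of all genes were called lower. The sum of the 9 markers was 11285 to 22983 CPM in controls and 9843 to 19311 CPM in mutants. Each of the 3 calls was lost without control library 2 and without control library 3 (adjusted p from 0.0974 to 0.165, edgeR). The sum of 6 odontoblast markers was lowest in control library 1 (14552 CPM, against 46331 and 32720 CPM in the other controls) and in mutant library 2 (12863 CPM, against 35556 and 17794 CPM). None of the 6 passed the edgeR test and 0 had an unadjusted p under 0.05. Most of the pulp sum came from *Col1a2* and *Sparc*, and most of the odontoblast sum from *Col1a1* and *Dspp*. In bulk tissue, fewer cells of a type cannot be told apart from less RNA per cell. *Ror2* itself was 38.2, 36.2 and 36.7 CPM in controls and 27.9, 28.1 and 26.3 CPM in mutants. Every mutant library lay below every control library, as held for 22.1% of all genes tested, so this is a weak check of the labels. The log2 fold change of *Ror2* was -0.43 (adjusted p = 0.0134 from edgeR), and the call was lost without control library 2 (adjusted p = 0.0664) and without control library 3 (adjusted p = 0.0752). As a fold of mutant over control this is 0.74. By immunostaining of tissue sections, which shows protein, the study describes Ror2 as undetectable in mutant dental mesenchyme, with epithelial Ror2 retained. The counts here are RNA of the whole sample, so these measures differ in kind. The source of the remaining reads was not tested.

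*Prrx1* (ENSMUSG00000026586.16; chr1:163245119-163313710 of mm10, minus strand) encodes a homeodomain protein of limb and craniofacial mesenchyme. It measured 38.0, 48.5 and 53.7 CPM in control libraries 1, 2 and 3 and 30.0, 25.1 and 31.8 CPM in mutant libraries 1, 2 and 3. Every mutant library was below every control library, and control library 1 was nearest to the mutants. The means were 46.7 ± 8.01 and 29.0 ± 3.48 CPM (SD, n = 3 libraries per group). The log2 fold change was -0.69, with a standard error of 0.15, a 95% confidence interval from -1.03 to -0.35 and an adjusted p of 0.0178 (edgeR). The exact permutation test over libraries, two-sided, gave p = 0.1, the smallest that 3 libraries against 3 allow. The call was lost without control library 2 (adjusted p = 0.0761 from edgeR) and without control library 3 (adjusted p = 0.082), where the log2 fold changes were -0.67 and -0.59. The decrease stood beside the 3 of 9 pulp mesenchyme markers that fell, given above, and their part in it was not tested.

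*Msx2* (ENSMUSG00000021469.9; chr13:53466884-53473074, minus strand) encodes a homeodomain repressor that is made in dental mesenchyme and also in dental epithelium, ameloblasts included. Its levels were 160.1, 177 and 167 CPM in controls and 235, 201 and 219.7 CPM in mutants. All mutant libraries lay above all control libraries, with mutant library 1 highest. Mean expression was 168 ± 8.59 CPM in controls and 219 ± 17.5 CPM in mutants (SD, n = 3). The log2 fold change was 0.38 (standard error 0.11, 95% confidence interval 0.13 to 0.62, adjusted p = 0.0416 from edgeR, exact permutation p = 0.1). This call was the weaker of the pair. Leaving out any single library except mutant library 2 ended it, with adjusted p-values of 0.107, 0.129 and 0.174 without control libraries 1, 2 and 3 and of 0.0981 and 0.0626 without mutant libraries 1 and 3 (edgeR). Beside the increase, the 10 epithelial markers went both ways, with 6 positive and 4 negative log2 fold changes and a median of 0.14. Of them, 3 were higher in every mutant library than in every control library, among them *Amelx* (log2 fold change 0.56, adjusted p = 0.0849 from edgeR). Another 2 were lower in every mutant library, among them the enamel matrix gene *Enam* (-0.47, adjusted p = 0.163 from edgeR). Of all genes tested, 22.6% were higher and 22.1% lower in this way, so these counts are close to the background share. The part of epithelial RNA in the *Msx2* value was not tested.

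**Figure D1:**
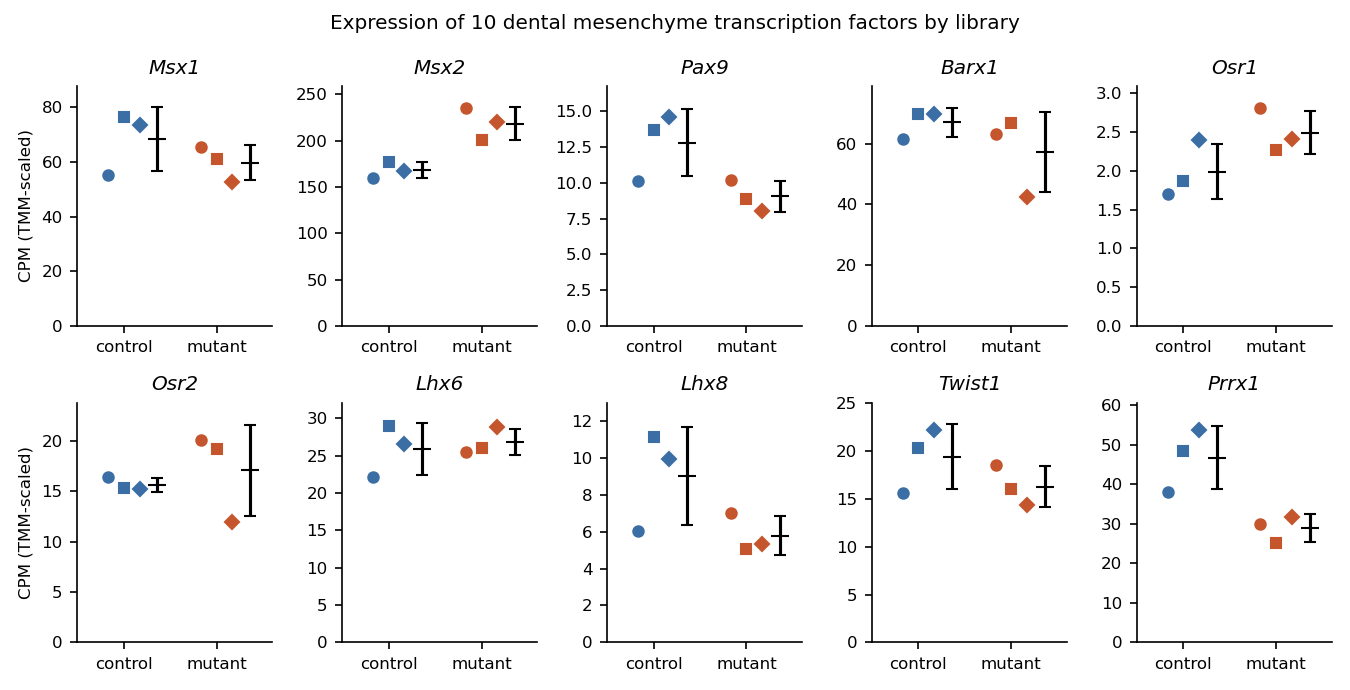
TMM-scaled CPM (vertical axes, each starting at 0) of the 10 transcription factors in 3 control and 3 mutant libraries. Circles, squares and diamonds are libraries 1, 2 and 3 of each group, and bars give the mean and SD; the groups stand apart for *Msx2* (160.1 to 177 against 201 to 235 CPM) and *Prrx1* (38.0 to 53.7 against 25.1 to 31.8 CPM) and overlap for the other 8.

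*Msx1* (ENSMUSG00000048450.10; chr5:37820485-37824583, minus strand), is the paralogue of *Msx2*. It measured 55.2, 76.5 and 73.6 CPM in controls and 65.4, 61.2 and 52.9 CPM in mutants, and the groups overlapped because control library 1 lay among the mutants. Its log2 fold change of -0.19 did not pass the test (95% confidence interval -0.52 to 0.13, adjusted p = 0.346 from edgeR). Because both genes were counted in the same library, their ratio does not depend on how libraries are scaled. There were 0.345, 0.432 and 0.439 *Msx1* counts per *Msx2* count in control libraries and 0.278, 0.305 and 0.241 in mutant libraries. All mutant ratios were below all control ratios. The ratio was 0.405 ± 0.0525 in controls and 0.275 ± 0.0325 in mutants (SD, n = 3), a difference of -0.56 on the log2 scale with p = 0.1 from the exact permutation test (two-sided, 0.3 after adjustment over 3 paralogue pairs). Since 0.1 is the smallest p this design allows, the test could not pass a threshold of 0.05. Leaving out each library in turn kept the difference between -0.67 and -0.47.

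*Pax9* (ENSMUSG00000001497.18; chr12:56691767-56712822, plus strand), the partner of *Msx1* in the tooth bud, measured 10.2, 13.7 and 14.6 CPM in controls and 10.2, 8.91 and 8.07 CPM in mutants. Control library 1 and mutant library 1 were level, and the other 2 controls lay above all mutants. Its log2 fold change was -0.50 (standard error 0.16, 95% confidence interval -0.88 to -0.12), with an adjusted p of 0.0633 from edgeR. Without control library 1, the lowest of the controls, it was -0.65 and passed (adjusted p = 0.0325). Leaving out the lowest control makes a decrease larger by construction. *Pax9* shares 2.27% of its 75-base stretches with the opposite strand of *Slc25a21*, whose exons overlap it by 189 bp. Without the strand setting of the counting, reads from this overlap cannot be told apart.

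*Lhx8* (ENSMUSG00000096225.7; chr3:154306294-154330659, minus strand) and *Lhx6* (ENSMUSG00000026890.19; chr2:36081953-36105408, minus strand) encode related LIM homeodomain proteins. *Lhx8* measured 6.04, 11.1 and 9.93 CPM in controls and 7.002, 5.06 and 5.30 CPM in mutants. Control library 1 was again within the mutant range. Its log2 fold change was -0.64 (standard error 0.24, 95% confidence interval -1.19 to -0.093, adjusted p = 0.0877 from edgeR). Without control library 1, here too the lowest control, it was -0.87 and passed (adjusted p = 0.0296), as leaving out the lowest control enlarges a decrease. *Lhx6* measured 22.1, 29.0 and 26.5 CPM in controls and 25.5, 26.1 and 28.8 CPM in mutants, and every mutant value lay inside the control range. The log2 fold change of *Lhx6* was 0.05 (95% confidence interval -0.23 to 0.33, adjusted p = 0.777 from edgeR), which in folds runs from 0.855 to 1.26. The ratio of *Lhx6* to *Lhx8* counts was 3.65, 2.605 and 2.67 in controls and 3.65, 5.15 and 5.44 in mutants, overlapping only through control library 1 and mutant library 1. The difference was 0.67 on the log2 scale (exact permutation p = 0.2, adjusted over the 3 pairs p = 0.3).

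*Osr2* (ENSMUSG00000022330.5; chr15:35296098-35303305, plus strand) is the gene whose regulatory sequence drives Cre in the mutants, and what the Cre allele adds to or takes from its counts cannot be told apart from the genotype. It measured 16.4, 15.3 and 15.2 CPM in controls and 20.1, 19.3 and 11.9 CPM in mutants. The controls lay close together, whereas mutant library 3 was below and mutant libraries 1 and 2 above all of them. Its log2 fold change of 0.13 did not pass the test (95% confidence interval -0.31 to 0.56, adjusted p = 0.65 from edgeR), and was 0.33 without mutant library 3 (adjusted p = 0.0541). *Osr1* (ENSMUSG00000048387.8; chr12:9570116-9581500, plus strand) had the fewest reads of the 10, with 109 to 166 counts per library. It measured 1.71, 1.87 and 2.40 CPM in controls and 2.81, 2.27 and 2.41 CPM in mutants, with a log2 fold change of 0.32 that did not pass the test (95% confidence interval -0.14 to 0.79, adjusted p = 0.273 from edgeR). The ratio of *Osr1* to *Osr2* counts was 0.128 ± 0.0273 in controls and 0.153 ± 0.0436 in mutants (SD, n = 3), and the groups overlapped (exact permutation p = 0.5).

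**Figure D2:**
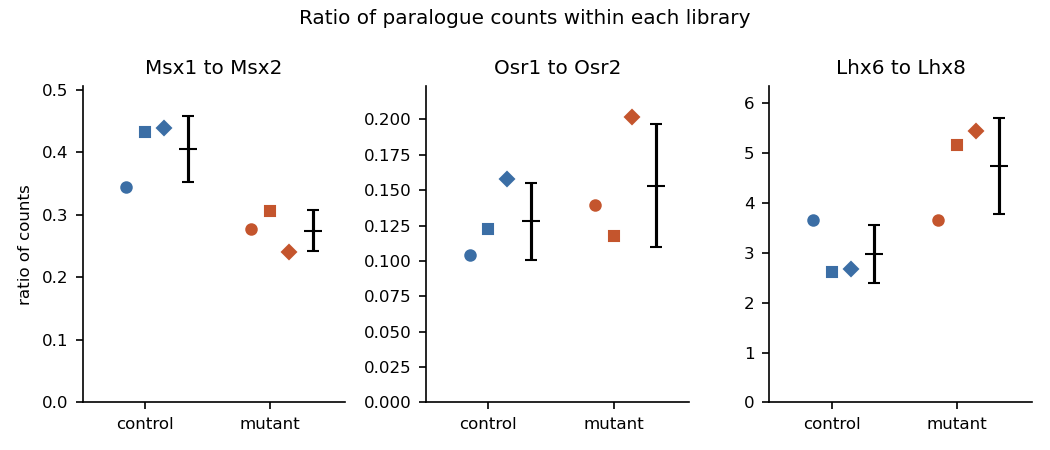
Ratio of counts of *Msx1* to *Msx2*, *Osr1* to *Osr2* and *Lhx6* to *Lhx8* (vertical axes, no unit, starting at 0) in each library, with circles, squares and diamonds for libraries 1, 2 and 3 and bars for the mean and SD. The *Msx1* to *Msx2* ratios of 0.241 to 0.305 in mutants lie below the 0.345 to 0.439 of controls, while the other ratios overlap between the groups.

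*Barx1* (ENSMUSG00000021381.4; chr13:48662998-48666507, plus strand), a marker of molar mesenchyme, measured 61.6, 69.7 and 69.6 CPM in controls and 63.03, 66.7 and 42.3 CPM in mutants. Mutant library 3 alone was low, as it was for *Osr2*, and the other mutants lay inside the control range. Its log2 fold change was -0.22 (95% confidence interval -0.60 to 0.16, adjusted p = 0.349 from edgeR), and -0.051 without mutant library 3. *Twist1* (ENSMUSG00000035799.6; chr12:33957671-33959829, plus strand) measured 15.7, 20.3 and 22.2 CPM in controls and 18.5, 16.1 and 14.3 CPM in mutants, with overlapping groups and a log2 fold change of -0.25 (95% confidence interval -0.61 to 0.11, adjusted p = 0.268 from edgeR). The values of *Msx1*, *Barx1* and *Twist1* moved most with an offset for GC content, to log2 fold changes of -0.41, -0.48 and -0.47, still without passing (adjusted p = 0.0871, 0.0511 and 0.0772 from edgeR). With the same offset *Prrx1* was -0.50 (adjusted p = 0.0365) and *Msx2* 0.40 (adjusted p = 0.0378 from edgeR). Transcript GC content ran from 43.6% for *Prrx1*, 46.7% for *Pax9* and 48.5% for *Msx2* to 65% for *Barx1*.

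**Figure D3:**
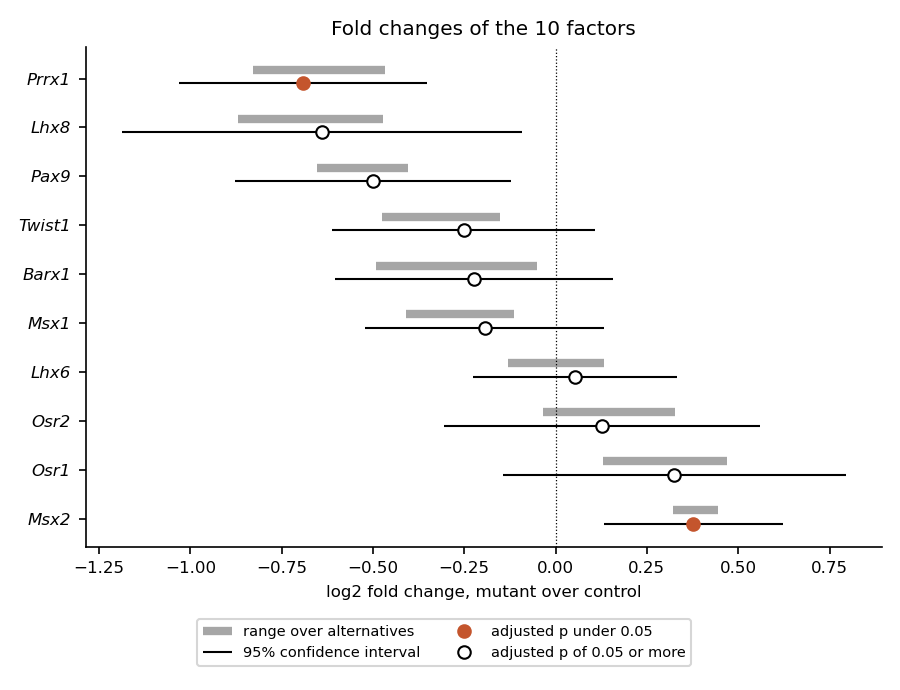
Log2 fold change of mutant over control (horizontal axis) for the 10 factors, with circles for the values of the edgeR fit, filled where the adjusted p was under 0.05, thin lines for 95% confidence intervals and thick grey lines for the range over 20 alternative analyses. The interval and the range of *Prrx1* (-1.03 to -0.35 and -0.83 to -0.47) lie below 0, those of *Msx2* (0.13 to 0.62 and 0.32 to 0.45) above it, and the ranges of *Lhx6* and *Osr2* span it.

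Levels of different genes were compared as CPM per kilobase of exon, with all annotated exons of a gene merged. The order rests on this length (11066 bp for *Prrx1*), as the lengths of the transcripts present were not measured. *Msx2* was highest, with 51.3 ± 2.62 in controls and 66.7 ± 5.34 in mutants (SD, n = 3), followed by *Barx1* (47.9 ± 3.34 and 41.0 ± 9.41), *Msx1* (22.1 ± 3.73 and 19.3 ± 2.06) and *Twist1* (11.9 ± 2.08 and 10.01 ± 1.29). These 4 genes kept ranks 1 to 4 in every library. *Msx2* and *Barx1* overlapped in controls, at 48.8 to 54.0 and 44.0 to 49.8 CPM per kilobase, and did not overlap in mutants, at 61.2 to 71.8 and 30.2 to 47.7. *Lhx6*, *Osr2*, *Prrx1* and *Lhx8* followed with mean levels between 3.57 and 5.38 in controls and between 2.29 and 5.58 in mutants, and changed places among each other from library to library. *Pax9* ranked 9 and *Osr1* 10 in all 6 libraries, with 2.54 ± 0.466 and 0.964 ± 0.174 CPM per kilobase in controls.

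The spread among control libraries was wider for these factors than the median of genes of like level. The median coefficient of variation of the 10 factors was 17% in controls, against 6.83% for the 12818 genes of the same range of levels, and 11.9% in mutants, against 12.9%. Control library 1 held the lowest control value for 9 of the 10 factors, with *Osr2* as the exception, whereas it held the lowest control value for 41.3% of all genes tested. It was also the control library with the lowest sum of odontoblast and of pulp markers. By its header it carries the letter code WW, whereas the other controls carry OW, and the labels do not explain these codes. Mutant library 2, which had the lowest sums among mutants, held the lowest mutant value for 4 of the 10 factors. Without both of these libraries, an alternative chosen after seeing the data, 4 of the 10 factors were called against 23.6% of all genes. *Prrx1*, *Lhx8* and *Pax9* were then lower, with log2 fold changes of -0.71, -0.76 and -0.62 (adjusted p = 0.00663, 0.0304 and 0.0344 from edgeR), and *Msx2* was higher, with 0.42 (adjusted p = 0.0194). Leaving out control library 1 raises the control mean of the 9 factors for which it was lowest. The calls of *Lhx8* and *Pax9* gained this way are therefore no independent evidence.

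Signals and matrix genes that act upstream or downstream of these factors in the tooth formed a list of 18 genes, all tested. Of these, 2 fell, none rose and 16 did not pass (11.1% called, against 20.2% of all genes), with a median log2 fold change of -0.11 against 0.0074 for all genes and -0.21 for the 10 factors. *Wnt5a*, a mesenchymal Wnt ligand that binds ROR2, fell from 217 ± 36.2 to 129.6 ± 15.9 CPM (SD, n = 3; log2 fold change -0.74, adjusted p = 0.016 from edgeR). *Bmpr1a*, a BMP receptor upstream of the MSX genes, fell from 184 ± 7.80 to 119 ± 26.1 CPM (log2 fold change -0.63, adjusted p = 0.0317). *Fgf10*, a mesenchymal ligand of epithelial FGF receptors, had a log2 fold change of -0.68 without passing (adjusted p = 0.0639 from edgeR). *Bmp4*, a target of MSX1 and PAX9, was 103 ± 8.15 and 116 ± 18.01 CPM (adjusted p = 0.357 from edgeR).

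Paralogues and protein partners formed a list of 27 genes, of which 23 were tested, 2 rose and none fell (8.70% called, against 20.2% of all genes), with a median log2 fold change of 0.027. *Barx2*, the paralogue of *Barx1*, rose from 7.81 ± 0.703 to 12.7 ± 1.01 CPM (log2 fold change 0.70, adjusted p = 0.00932 from edgeR). *Ldb1*, which encodes the cofactor that binds LIM domains, rose from 126 ± 7.20 to 228 ± 78.8 CPM (log2 fold change 0.86, adjusted p = 0.0304). *Ssbp4*, of a family that binds LDB1, had a log2 fold change of 0.54 and did not pass (adjusted p = 0.055 from edgeR). The paralogues *Prrx2* and *Twist2*, chosen after their values were seen, had log2 fold changes of -0.44 and -0.54, with every mutant library below every control library and adjusted p-values of 0.0895 and 0.0973 (edgeR). Across all genes tested the groups did not overlap for 44.7% (22.6% higher and 22.1% lower in mutants), and for 2 of the 10 factors.

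Other transcription factors of craniofacial and dental mesenchyme formed a list of 43 genes, of which 38 were tested. Of these 3 rose, 2 fell and 33 did not pass (13.2% called, against 20.2% of all genes), with a median log2 fold change of -0.089. *Gli1*, a target of Hedgehog signaling, rose from 119 ± 17.3 to 246 ± 76.0 CPM (log2 fold change 1.05, adjusted p = 0.0155 from edgeR). Mutant library 2 was highest for *Gli1* (333 CPM, against 207 and 197 CPM in the other mutants). *Ptch1* of the list of signals, also a Hedgehog target and named after its values were seen, was 402 ± 8.83 and 426 ± 84.3 CPM (adjusted p = 0.716 from edgeR). *Dlx2*, a homeobox gene of the branchial arches, rose from 108 ± 1.03 to 153 ± 10.5 CPM (log2 fold change 0.51, adjusted p = 0.012). *Zeb2*, a zinc finger factor of neural crest derivatives, fell from 70.8 ± 12.1 to 39.6 ± 8.04 CPM (log2 fold change -0.84, adjusted p = 0.0173 from edgeR). *Pitx1*, a homeobox gene of the mandibular arch, and *Gli3*, a Hedgehog effector, completed the 5 and were named after their values were seen, with log2 fold changes of 0.42 and -0.50 (adjusted p = 0.025 and 0.0438 from edgeR). Each of the 9 calls in the lists of signals, partners and other factors was lost without control library 2 and without control library 3, with adjusted p-values from 0.0592 for *Barx2* to 0.148 for *Gli3* (edgeR). *Bmpr1a*, *Ldb1* and *Gli3* were also lost without control library 1 (adjusted p = 0.0636, 0.0745 and 0.0753), and *Bmpr1a*, *Ldb1*, *Pitx1* and *Gli3* without mutant library 1 (adjusted p = 0.0605, 0.0506, 0.0551 and 0.0813). Without mutant library 2, which held the highest *Ldb1* value, the log2 fold change of *Ldb1* was 0.55.

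**Figure D4:**
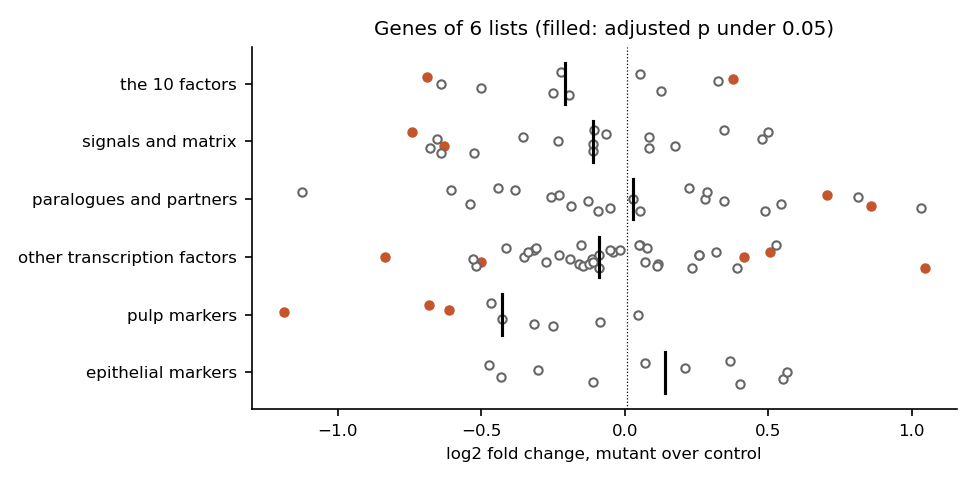
Log2 fold change of mutant over control (horizontal axis) of each tested gene in 6 lists (rows), filled where the adjusted p was under 0.05, with a bar at the list median and a dotted line at the median of all genes. The medians run from -0.43 for pulp markers and -0.21 for the 10 factors to 0.14 for epithelial markers.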

How the data were processed

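RNA-seq of 3 control and 3 mutant libraries was analyzed. Estimated counts, 1 value per gene and library, were deposited by the authors, who counted single-end reads over exons of mm10. The methods name TopHat 2 as aligner, while the submitters' processing notes name STAR 2.6.1d and Partek. The counting of strand and of reads that fit several genes, and the annotation, are not given in the sources used here. Of the values, 47.8% were whole. The authors also deposited a normalized signal per gene, with 1 factor per library and no division by length, used as an alternative. The count table holds 6 columns that no label ties to a sample, which were not used. By their headers, 4 are named WT and carry identifiers of the mutants' number series, and 2 carry the mutants' letter code with identifiers of the controls' series. The design assumed whole counts, so the estimated counts were rounded and tested with edgeR 4.0.16 in R 4.3.3 (TMM scaling, filterByExpr, quasi-likelihood test without a block, Benjamini-Hochberg adjustment, threshold 0.05), with common variation between libraries of a group of 18.7%. Confidence intervals used the standard error and degrees of freedom of that fit. They and the p-values rest on 3 libraries per group.

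For the exact permutation tests, CPM were taken to log2 after adding a prior count of 2, and ratios of counts to log2. No library was a copy of another, as the mean chi-square per gene within groups ranged from 67.9 to 284. GENCODE M21 gave exons and transcripts, with start and end matching the deposited coordinates for 27477 of 27506 genes. Of the 10 factors, *Pax9* and *Lhx6* shared 75-base stretches with another gene. The factors and lists were chosen with earlier results of these data known. Besides the 10 factors and *Ror2*, each list of signals, partners and other factors has the 3 members of lowest p named. *Bmp4*, *Prrx2*, *Twist2*, *Pitx1*, *Gli3* and *Ptch1* were added after their values were seen. Some genes of the marker lists are not reported here. Alternatives were DESeq2 1.42.0, edgeR's likelihood ratio test, limma 3.58.1 (voom with sample quality weights, and trend on the normalized signal), other scaling and filters, offsets for GC content and length, a replicate block, and leaving out libraries.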

Additional observations from a re-analysis of the deposited data

How the results depend on the processing

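*Prrx1* kept its direction in all 20 alternatives and an adjusted p under 0.05 in 17, and *Msx2* in all 20 and in 10. *Pax9* passed in 5 and *Lhx8* in 3, and the other 6 factors in none. The number of factors called was 4 with DESeq2 (28% of all genes), 1 with scaling by library size alone (19.2%), 1 with no filter on low counts (12.3%) and 1 with the length offset (20.4%), in each of which *Prrx1* was among those called. Leaving out single libraries gave 0 to 3, with 0 without control library 2 or 3, when 910 and 872 genes were called in place of 3906. All genes called numbered 2404 without mutant library 1 and 6341 with voom. The signals called were 5 with DESeq2, the likelihood ratio test and voom, 4 with library size alone and 0 to 3 without single libraries. The partners called were 4, 4 and 9 with those tests, 4 with the length offset and 0 to 5 without single libraries, and other factors called were 10 with voom and 0 to 8 without single libraries. Without control library 1 and mutant library 2, chosen after seeing the data, 4 of the 10 factors, 5 signals, 5 partners and 11 other factors were called. The log2 fold change of *Ror2* ran from -0.46 to -0.41 without single libraries and was -0.65 with the GC offset. Without single libraries the log2 fold change of *Lhx6* ran from -0.059 to 0.13 and that of *Osr2* from -0.0054 to 0.33. With the GC offset *Bmpr1a* was -0.37, *Dlx2* 0.30, *Zeb2* -0.55, *Pitx1* 0.17, *Postn* -0.25 and *Aspn* -0.63, and with the length offset *Gli3* was -0.32 and *Zeb2* -0.47. The sign of *Lhx6* turned with voom (-0.011), the GC offset (-0.13), without control library 1 (-0.059), without mutant library 3 (-0.0076) and without control library 1 and mutant library 2 (-0.016), and that of *Osr2* with the GC offset (-0.0032) and without mutant library 1 (-0.0054). The causes were not tested.

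Same-numbered libraries had correlations of -0.1, -0.08 and -0.0038 between their deviations from the group means, against -0.037 to 0.1 for differently numbered libraries. The methods mention 3 pairs of samples without saying which libraries form a pair. Deviations within a group of 3 depend on one another, so these values cannot decide whether libraries were paired. With the replicate number as a block, 2013 genes, 1 factor (*Prrx1*), 1 signal, 1 partner and 3 other factors were called, and *Ror2* was -0.43 (adjusted p = 0.0582 from edgeR). With the block and the GC offset 1323 genes were called, but 0 factors, 0 signals, 0 partners and 0 other factors, while *Lhx6* was -0.12 and *Osr2* -0.034.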

Other observations

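Marker lists of other tissues not described above showed the following, where 10.4% of all genes tested were called higher and 9.84% lower in mutants. Of 6 skeletal muscle markers, 5 were tested and all 5 fell, and their summed level was 8.16 to 31.0 CPM in controls and 1.96 to 2.19 CPM in mutants. Of 5 red blood cell markers, *Hba-a1* and *Alas2* fell and none rose, with sums of 782 to 1318 CPM in controls and 243 to 932 CPM in mutants. Among markers of Schwann cells and neurons, the Schwann cell gene *S100b* rose from 2.31 ± 0.307 to 4.34 ± 0.533 CPM (SD, n = 3; adjusted p = 0.0145 from edgeR). None of the 5 endothelial and none of the 5 mural cell markers passed the edgeR test (0 and 1 with an unadjusted p under 0.05), and their sums overlapped between the groups. Of the 6 osteoblast markers *Spp1* rose, of the 6 dental follicle markers *Aspn* fell, and of the 5 leukocyte markers *Adgre1* fell. The other markers of these lists did not pass, and the sums overlapped between the groups. Log2 fold changes were positive for 3 and negative for 3 osteoblast markers, and likewise for the follicle markers. Among leukocyte markers 2 were positive and 3 negative. *Hba-a1* was lost without mutant library 1 (adjusted p = 0.0507), *S100b* without control library 2 or 3 (0.0775 and 0.0592), and *Alas2*, *Spp1*, *Aspn* and *Adgre1* each without 3 or more of the 6 libraries in turn (adjusted p from 0.0524 to 0.18, edgeR).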
